A study of Mus musculus with 22 samples.

Results

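Keratin genes were taken as every gene whose symbol is Krt followed by a number and, in some cases, a final letter, with the keratin-associated proteins (Krtap) and Krtdap left out. The rule used names only and no measured value, and it found 51 of the 46882 genes listed. Of these 51 genes, 28 belong to type I (acidic) and 23 to type II (basic). All 51 were matched by symbol to the GENCODE M21 annotation of GRCm38, which lists 50 as protein-coding and Krt74 as a transcribed pseudogene. There 27 type I genes lie on the minus strand of chromosome 11 between 99232761 and 100269871. The 23 type II genes and the type I gene Krt18 lie on chromosome 15 between 101347444 and 102032027.

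Keratins are the intermediate filament proteins of epithelial cells, and a filament is built from pairs of 1 type I and 1 type II chain. The pairs change with the cell: Krt5 and Krt14 are made in the dividing basal layer of the epidermis, Krt1 and Krt10 in the layers above it, and Krt6a, Krt6b, Krt16 and Krt17 in the companion layer of the hair follicle, the nail bed and injured epidermis. The inner root sheath and the hair fiber have sets of their own, and simple epithelia such as the lining of the colon use Krt8 and Krt18 together with Krt7, Krt19 or Krt20. Filaments are anchored at desmosomes between cells and at hemidesmosomes on the basement membrane.

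RNA was measured in 16 libraries with QuantSeq, a 3′ method that gives about 1 tag per transcript, so that levels are not scaled to transcript length. Levels were compared mainly between samples, and between genes only in sums, shares and partner pairs. The 2 samples of MC38, a chemically induced mouse colon carcinoma line, were labelled as day 0 cells and are not said to be separate cultures. The 12 tumors grew from MC38 cells injected under the skin of 8- to 12-week-old mice, 3 in each of 4 groups. Of these groups, 2 were wild-type (WT) C57BL/6N mice killed on day 23 or 46, and 2 carried the label RAG1-/- (B6.129S7-Rag1tm1Mom/J, which lack mature T and B cells) and were killed on day 13 or 23. The 2 skin samples carried the labels wild type, C57BL/6N and day 23, with the same age. The p-values below measure the spread between these samples.

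The deposited values are counts divided by size factors (normalized counts), with 5589151 to 26134241 reads on genes per library, and 3 reads equal 1.33 to 6.38 normalized counts. The tumor libraries, labelled as tumor cells, also held RNA of the host: Ptprc, the pan-leukocyte gene, lay between 517 and 916 normalized counts in the 12 tumors and at 0 and 0.978 in the MC38 libraries. Rag1 itself went against the labels, with 1.07 to 11.4 normalized counts (1 to 12 reads) in the 6 tumors labelled RAG1-/-, 0 reads in 5 of the 6 WT tumors and 1 read in the sixth. A 3′ tag need not lie in the deleted stretch, so it checks nothing. Cd8a, the T cell coreceptor, followed the labels with at most 1 read in a library labelled RAG1-/- and 5.86 to 79.7 normalized counts in WT tumors. Ddx3y, a gene of the Y chromosome, stood at 1803 and 1919 in skin and at 1.07 or less in every tumor and MC38 library, while the methods of the study name female mice.

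Keratins took up 3.89% and 2.77% of all reads in the skin libraries. In MC38 cells they took up 0.00292% and 0.00313%, and in tumors between 0.00216% and 0.0212% with a median of 0.00422%. Of the 51 genes, 49 and 48 had a read in the skin libraries, 10 and 22 in the MC38 libraries, and 11 to 29 in a tumor. Krt74, the pseudogene, had 0 reads in all 16 libraries.

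**Figure D1:**
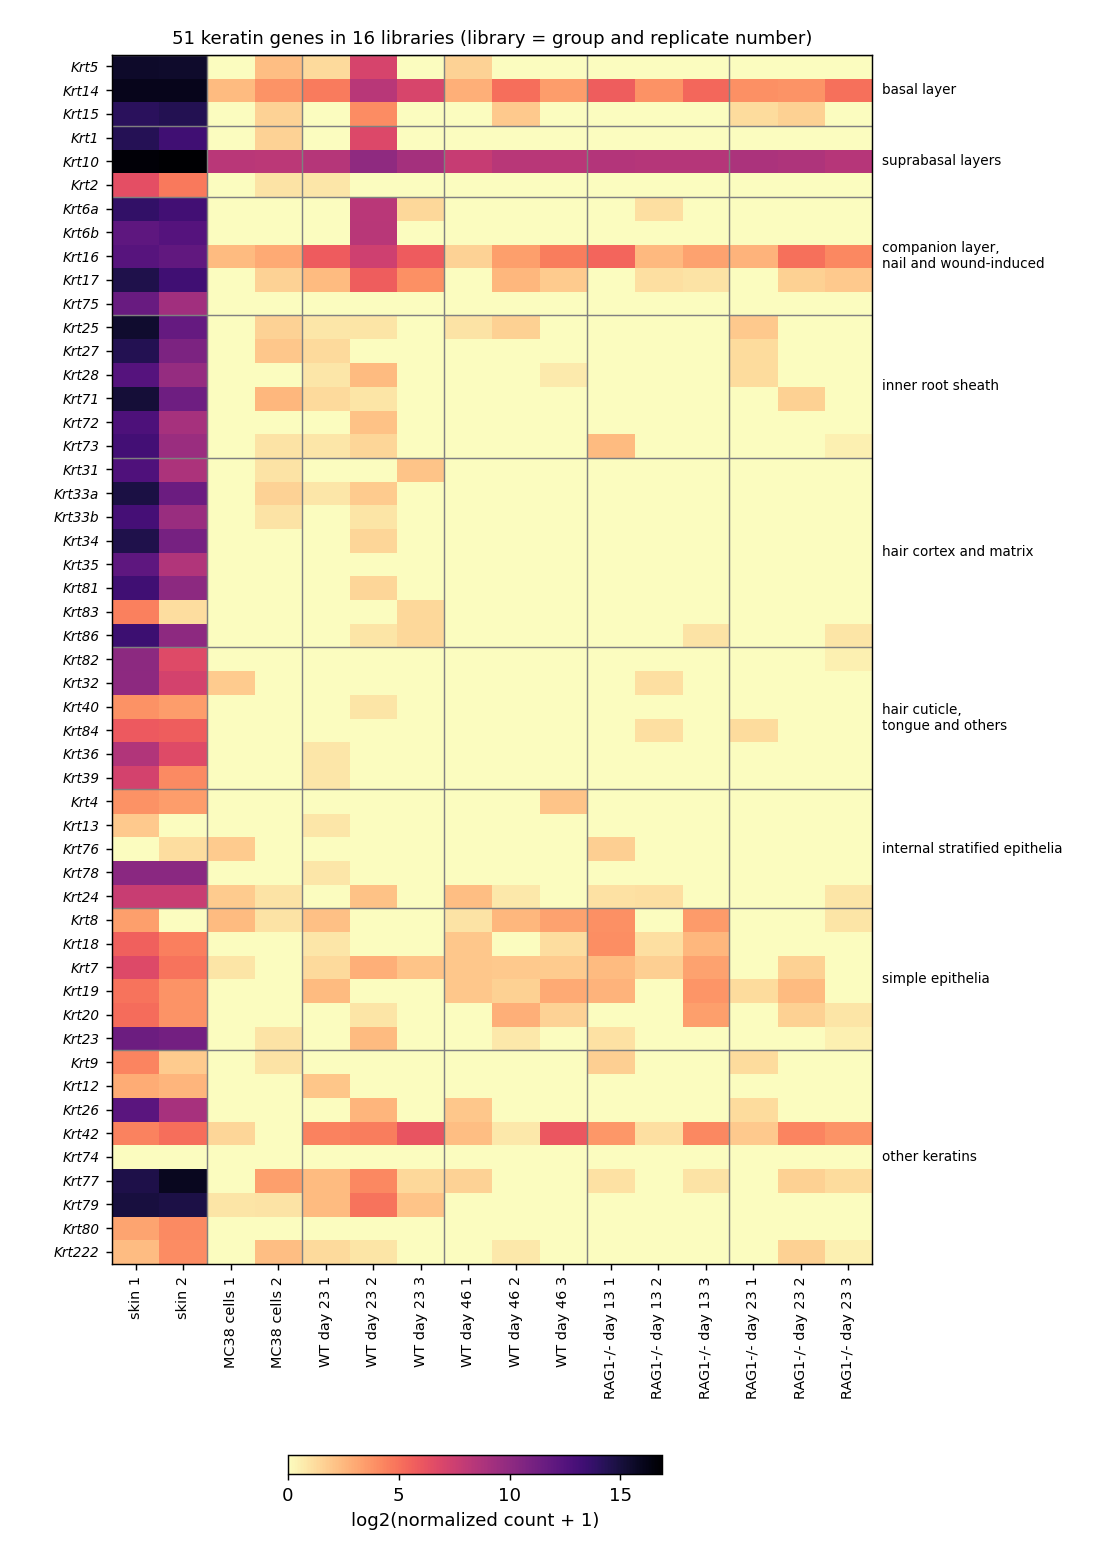
Levels of the 51 keratin genes (rows, grouped by the tissue layer each is known for) in 16 libraries (columns, by group and replicate number), coloured by log2(normalized count + 1). Both skin columns are dark over most rows, Krt10 has a level in every library, and replicate 2 of the WT tumors of day 23 stands out among the tumors for basal, suprabasal and wound-induced keratins.

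Skin held the keratins of every epidermal and follicular layer: 44 of the 51 were above 5 normalized counts in both skin libraries and 28 had a mean above 1000. In the basal layer Krt5 stood at 48701 and 45959 normalized counts in skin replicates 1 and 2, Krt14 at 67017 and 65052, and Krt15, a keratin of basal and follicle stem cells, at 18273 and 22104. In the layers above, Krt1 stood at 20514 and 10047, Krt10 at 103520 and 122020, and Krt2, a keratin of the outermost living cells, at 87.1 and 25.5. These 6 epidermal keratins of skin differed by at most 3.42 times between the skin libraries. Among the keratins of the companion layer, nail and wounds, Krt6a stood at 14221 and 9678, Krt6b at 4158 and 5637, Krt16 at 5307 and 3877, Krt17 at 25448 and 10212, and Krt75 at 3254 and 607. Krt77, a suprabasal keratin of the sweat duct and interfollicular epidermis, stood at 26213 and 61198, and Krt79, a keratin of the upper hair follicle and sebaceous duct, at 31733 and 27894.

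The hair keratins differed more between both skin libraries than the epidermal ones. Of 47 keratins with a skin mean of at least 5, 20 were at least 5-fold higher in replicate 1 and 0 were at least 5-fold lower, beside 2.34% and 2.13% of 17111 genes. With 1 library on each side there is no test, and intervals cover counting error only. All 6 inner root sheath keratins were higher in replicate 1, by 6.66 to 13.5 times. Krt25 stood at 42677 and 3445, Krt27 at 21532 and 1744, Krt28 at 5689 and 854, Krt71 at 36273 and 2713, Krt72 at 7143 and 528, and Krt73 at 9195 and 739. All 8 keratins of the hair cortex and matrix were higher too, by 8.94 to 16.8 times. Krt31 stood at 6814 and 439.8, Krt33a at 28643 and 2998, Krt33b at 8895 and 764, Krt34 at 24652 and 2137, Krt35 at 4319 and 386, Krt81 at 10044 and 1123, Krt83 at 21.4 and 1.27, and Krt86 at 11078 and 1056. The ratio of Krt34 had a 95% interval of 10.98 to 12.1 and that of Krt71 one of 12.8 to 14.0. The highest ratio, that of Krt83, rests on 16 reads and 1 read, with an interval of 2.61 to 705.

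Of the keratins of the hair cuticle, tongue and others, Krt32, Krt39 and Krt82 also passed 5-fold (7.19, 8.97 and 10.7 times), and Krt36 (3.82), Krt40 (1.31) and Krt84 (1.10) did not. The remaining genes past 5-fold were Krt75 (5.36), Krt9 (7.36, from 14 and 2 reads) and Krt26 (9.33), a further inner root sheath keratin that is listed with Krt74 among the other keratins here. The basal keratins Krt5, Krt14 and Krt15 were at 1.06, 1.03 and 0.827 times. Genes of the growing hair that are no keratins moved the same way: Tchh, the trichohyalin of the inner root sheath, stood at 91458 and 11383, Krtap8-1, a cortex protein, at 54298 and 4784, and Msx2 and Hoxc13, regulators of the hair matrix, at 1778 and 237 and at 1275 and 273. The melanocyte markers summed to 4417 and 1643. Epidermal markers other than keratins summed to 316970 and 307480. The part of hair follicle content in the difference was not tested, and in whole tissue fewer cells of a type and less RNA per cell cannot be told apart.

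**Figure D2:**
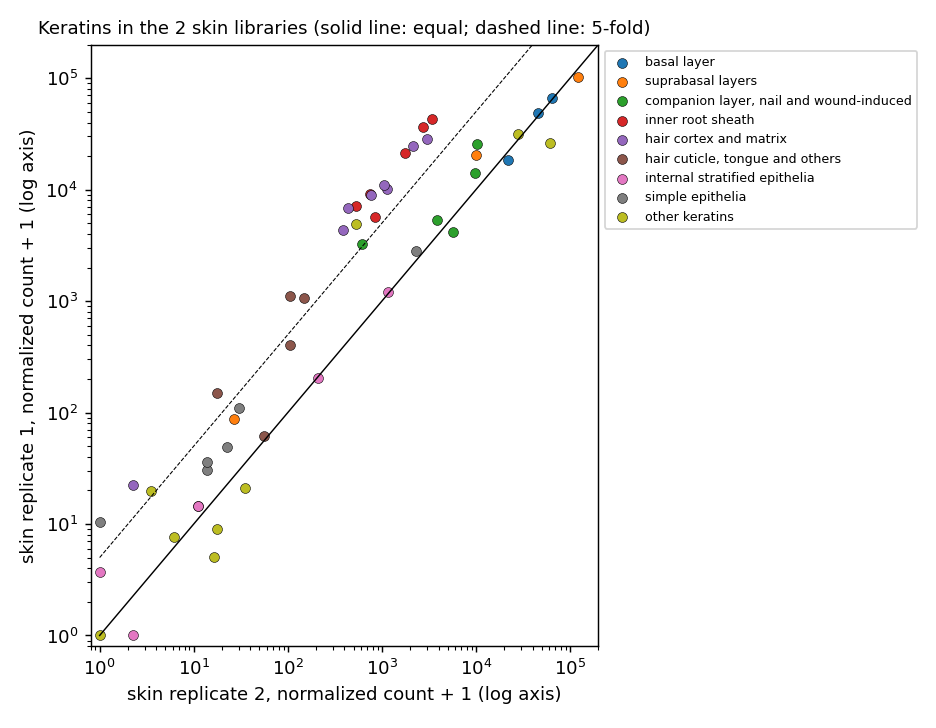
Normalized count + 1 of each of the 51 keratins in skin replicate 2 (x) and replicate 1 (y), both on log axes and coloured by layer, with a solid line at equality and a dashed line at 5-fold. The inner root sheath and hair cortex keratins lie above the dashed line, while the 3 basal keratins lie on or near the solid line.

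The promoters of these hair keratins are shown because the genes were higher together in skin replicate 1, beside those of epidermal keratins that were not. Each sequence is the 100 bases before the RefSeq start of the gene in GRCm38.p6, read 5′ to 3′ on the strand of the gene, all on the minus strand, with the letters TATAAA in capitals. The Krt14 window lies inside the GENCODE gene (100203162 to 100207548), so it is not the region before that annotated start.
Krt25 (inner root sheath, chr11:99322952-99323051): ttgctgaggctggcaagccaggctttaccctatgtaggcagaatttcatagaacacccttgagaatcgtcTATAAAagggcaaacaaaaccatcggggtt
Krt28 (inner root sheath, chr11:99374904-99375003): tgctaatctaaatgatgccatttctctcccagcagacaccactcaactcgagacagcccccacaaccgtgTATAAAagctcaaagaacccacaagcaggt
Krt71 (inner root sheath, chr15:101743098-101743197): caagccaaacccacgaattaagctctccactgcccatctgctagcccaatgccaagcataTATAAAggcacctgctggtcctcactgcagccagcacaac
Krt34 (hair cortex, chr11:100041555-100041654): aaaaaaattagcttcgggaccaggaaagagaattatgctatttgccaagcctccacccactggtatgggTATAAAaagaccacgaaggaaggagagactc
Krt10 (suprabasal, chr11:99389365-99389464): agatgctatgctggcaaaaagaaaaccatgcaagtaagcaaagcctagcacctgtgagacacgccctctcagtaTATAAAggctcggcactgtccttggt
Krt5 (basal, chr15:101712906-101713005): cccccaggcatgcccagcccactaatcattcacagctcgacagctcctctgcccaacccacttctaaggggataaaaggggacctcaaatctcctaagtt
Krt14 (basal, chr11:100206031-100206130): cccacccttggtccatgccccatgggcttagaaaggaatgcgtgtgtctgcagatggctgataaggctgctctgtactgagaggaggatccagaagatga

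TATAAA, the core of the TATA box, was searched as these letters on the strand of the gene. It stood in 15 of the 35 keratin promoters in the table (42.9%) and in 1118 of all 27025 promoters (4.14%). By layer it stood in 5 of 6 inner root sheath promoters (Krt72 being the exception), 3 of 3 of the hair cortex (Krt31, Krt33b and Krt34), 0 of 2 of the basal layer, 1 of 2 of the suprabasal layers (Krt10) and 1 of 5 of simple epithelia (Krt20). It also stood in 2 of 6 of the hair cuticle (Krt32 and Krt40, but not Krt39 and Krt82), 2 of 6 of the other keratins, 1 of 4 of internal stratified epithelia and 0 of 1 of the companion layer. The windows of Krt14, Krt7 and Krt8 lie inside the GENCODE genes, so their lack of the letters does not describe the region before those starts. A match describes the letters in the window and is not a site in use, and a promoter without the letters says nothing about the factor.

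MC38 cells and skin were compared to ask which keratins of an epithelial tissue the tumor line carries. Of 46 keratins tested, 43 were lower in MC38, 0 were higher and 3 did not pass (Krt9, Krt83 and Krt222), in limma on log2(normalized count + 1) with Benjamini-Hochberg adjustment, beside 41.2% lower, 20.8% higher and 62.0% in either direction among 16780 genes. At an unadjusted p under 0.05 there were 44, beside 66.3% of genes. Over all genes, 3482 were higher and 6920 lower, and 4972 were higher and 5759 lower when libraries were scaled to the total, with the same 43 keratins lower. In 43 of the 46 the MC38 mean was under 5, so these passed the filter on low values through skin, which fixed their direction in advance. They include Krt9, Krt83 and Krt222, so they are not the same genes as the 43 called lower. The other 5 keratins (Krt8, Krt12, Krt13, Krt74 and Krt76) were not tested. The count of lower keratins was 31 without skin replicate 1 and 35 without skin replicate 2, with 40 and 42 keratins tested. Without skin replicate 1 the adjusted p in limma was 0.0516 for Krt5 and 0.0792 for Krt71, and without skin replicate 2 it was 0.0505 and 0.0578.

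Krt10 was the only keratin above 5 normalized counts in both MC38 libraries, at 304 and 291. In skin it stood at 103520 and 122020, and the groups did not overlap. The log2 difference, MC38 minus skin, was -8.56 (SE 0.132, adjusted p = 7.15e-05 in limma). Krt1, its usual type II partner, had 0 and 2 reads in MC38, 16603 times fewer than in skin with a counting interval of 4596 to 137100. Krt10 was thus measured in the line nearly without its partner. The last 500 exonic bases of Krt10 overlapped no other annotated gene and shared no run of 50 bases with one.

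Of the remaining keratins, 25 had 0 reads in both MC38 libraries and 17 had 1 to 3 reads over both. Of the 25, 23 were above the limit that a count of 0 allows (3 reads in a library) in skin, and the bounds ran from at least 2.01-fold lower for Krt12, the corneal keratin, to at least 4567-fold lower for Krt34. Krt6a was at least 4075-fold lower and Krt6b at least 1670-fold lower. Krt14 stood at 4.28 and 12.7 normalized counts and Krt16 at 4.28 and 6.84. MC38 replicate 2 held 1 to 10 reads of several skin keratins that replicate 1 lacked, among them Krt77 (9.78), Krt71 (4.89), Krt5 (3.91) and Krt27 (2.93), and 11.7 normalized counts of Krtap8-1 against 0. The part of skin RNA in these reads was not tested, and 43 keratins were also lower without MC38 replicate 2.

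The simple epithelial keratins, which colon epithelium uses, were at or near 0 in MC38. Krt18, Krt19 and Krt20 had 0 reads in both libraries. Krt8, the type II partner of Krt18, stood at 4.28 and 0.978 normalized counts, and Krt7 at 0.856 and 0. Krt23 stood at 0 and 0.978. Other markers of colon epithelium were low as well: Cdx2, the intestinal transcription factor, and Muc2, the goblet cell mucin, had 0 reads, Cdh1 (E-cadherin) stood at 0 and 0.978, Epcam at 0 and 3.91 and Vil1 (villin) at 0 and 1.96. Over the 9 colon markers the sums were 8.56 and 14.7. Vim, the vimentin of mesenchymal cells, stood at 25666 and 24659 in MC38 and at 10301 and 13890 in skin (log2 difference 1.07, SE 0.177, adjusted p = 0.00531 in limma).

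In skin the values of these genes were small too, apart from Krt23. Krt18 stood at 48.2 and 21.7, Krt19 at 29.5 and 12.7, Krt20 at 34.8 and 12.7, Krt7 at 109.8 and 29.3, and Krt8 at 9.38 and 0. Krt23 stood at 2813 and 2328. Even so, 5 of the 6 genes were tested and called lower in MC38, with log2 differences of -4.36 (Krt19) to -10.83 (Krt23), while Krt8 was not tested. Without skin replicate 1 the call of Krt7 was lost. Of the keratins of internal stratified epithelia, Krt78 stood at 1200.3 and 1154 in skin, Krt24 at 204 and 209, Krt4, of the esophagus, at 13.4 and 10.2, Krt13 at 2.68 and 0, and Krt76 at 0 and 1.27.

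**Figure D3:**
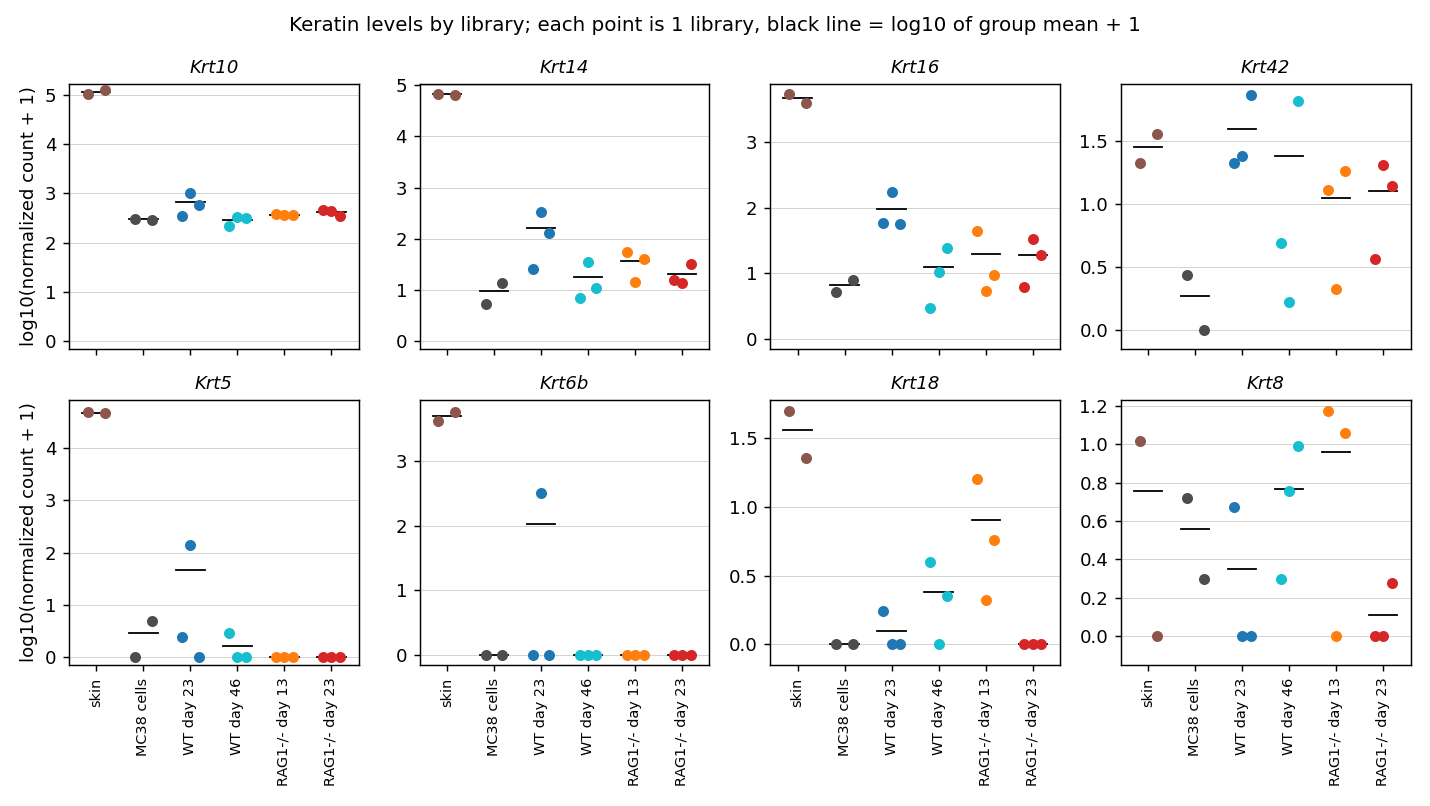
Levels of 8 keratins as log10(normalized count + 1) on axes scaled to each gene, with 1 point per library in skin, MC38 cells and the 4 tumor groups and a black line at the group mean. Krt10 lies between 219 and 569 normalized counts outside skin apart from 1 tumor at 1038, Krt5 and Krt6b are high in 1 WT tumor of day 23, and Krt18 and Krt8 are at or near 0 in MC38.

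Genes of the junctions that hold keratin filaments were low in MC38 as well. Of 14 desmosome genes, 14 were lower than in skin, beside 41.2% of all genes. The median log2 difference was -9.99 beside -0.40 over all genes tested. Perp, a desmosomal membrane protein, had 0 reads in MC38 and a mean of 28313 in skin. Dsp, the desmoplakin that ties keratin to the junction, had a mean of 1.96 against 30528 (log2 difference -13.74, SE 0.761, adjusted p = 0.000227). Pkp1 and Dsg1a, a plakophilin and a desmosomal cadherin, had 0 reads against 7570 and 6902. In 11 of these 14 genes the MC38 mean was also under 5, so that they passed the filter through skin.

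Of 9 hemidesmosome genes, 7 were lower in MC38, beside 41.2% of all genes. Col17a1, Lamb3, Lama3 and Itgb4, all of the epidermal anchoring complex, differed most, with log2 differences of -10.56, -9.14, -7.10 and -6.05. Lamb3 stood at 0 and 0 and Lama3 at 0 and 3.91 in MC38, so both passed the filter through skin. Plec and Cd151, both widely expressed, did not pass the test (0.01 and -0.16). All 14 tested regulators of keratin genes were lower, beside 41.2% of all genes, and 8 of the 14 had an MC38 mean under 5 and passed the filter through skin, with Zfp750 (-10.37), Barx2 (-9.95), Ovol1 (-9.60) and Msx2 (-9.35) furthest below skin. Trp63, the p63 factor of basal keratinocytes, had a mean of 1.71 against 1203. Klf4 and Tfap2a kept clear levels in MC38, with means of 2018 and 527 against 7032 and 999. Of 8 tested genes of other intermediate filaments, 3 were higher in MC38 (Vim, Lmnb1 and Lmnb2) and 4 were lower (Synm, Des, Bfsp1 and Nes). Over all genes 20.8% were higher and 41.2% lower.

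WT tumors of day 23 and skin, labelled with the same day, were compared for the same question in grown tumors. Both this comparison and the one above use the same skin libraries. Of 40 keratins tested, 39 were lower in the tumors and 0 were higher in limma, beside 33.8% lower, 18.7% higher and 52.6% in either direction among 16775 genes (58.6% at an unadjusted p under 0.05). Scaling to the total gave 4616 genes higher and 4445 lower in place of 3145 and 5675, with the same 39 keratins. In 28 of the 40 the tumor mean was under 5, so that they passed the filter through skin. Krt10 stood at 353, 1038 and 569 in the tumors (log2 difference -7.56, SE 0.413, adjusted p = 9.18e-05), Krt14 at 24.3, 329.9 and 132 (-9.32, SE 0.946, adjusted p = 0.000383), and Krt25 at 0.738, 0.852 and 0 (-13.00, SE 1.00, adjusted p = 0.000166). No tumor reached the level of a skin library for any of these genes. The count of lower keratins ran from 31 to 44 when single libraries were left out.

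Krt42 was the tested keratin that did not pass. This type I keratin is known from the nail unit and stood at 20.1 and 34.4 normalized counts in skin and at 19.9, 23.0 and 71.3 in the WT tumors of day 23, so the groups overlapped (log2 difference 0.28, SE 0.666, adjusted p = 0.751). The sign turned without tumor replicate 3 (-0.29) and without skin replicate 1 (-0.10).

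Few keratins had a level in tumors. Only Krt10 and Krt14 were above 5 normalized counts in all 12 tumors, 18 were above 5 in at least 1 tumor, and 33 were at 5 or less in every tumor. Krt10 stood at 353, 1038 and 569 in WT tumors of day 23, at 219, 326 and 312 at day 46, at 372, 362 and 359 in RAG1-/- tumors of day 13, and at 465, 432 and 344 at day 23. Of the 12 values, only the 219 of WT replicate 1 of day 46 lay below those of the cultured cells (304 and 291), and the others lay above both. Krt10 made up 40.1% of the summed keratin count in WT replicate 2 of day 23 and 66.4% to 93.2% in the other 11 tumors.

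Krt14 stood at 24.3, 329.9 and 132 in WT tumors of day 23, at 5.86, 34.2 and 10.05 at day 46, at 53.5, 13.3 and 40.0 in RAG1-/- tumors of day 13, and at 14.4, 12.8 and 31.8 at day 23. Krt5, its basal partner, had 159 reads (135.5 normalized counts) in WT replicate 2 of day 23, at most 2 reads in 2 other tumors, and 0 reads in the remaining 9. Krt14 was thus present in tumors in which Krt5 was not detected at this depth. The 3′ tail of Krt14 shares 9.53% of its 50-base runs with Krt17 and Krt16, so that reads among these genes can be split by the counting. Krt16 stood at 56.8, 169.6 and 55.5 in WT tumors of day 23, at 1.95, 9.40 and 23.2 at day 46, at 42.8, 4.45 and 8.57 in RAG1-/- tumors of day 13, and at 5.24, 31.9 and 17.7 at day 23. Its tail shares 16.9% of its runs with Krt14 and the gene model Gm11597. Krt17 ran from 0 to 14.3 in 11 tumors and reached 52.9 in WT replicate 2 of day 23.

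Against MC38 cells, 9 keratins were tested in the 12 tumors and 0 were called by limma, beside 18.2% higher and 9.43% lower among 14708 genes. At an unadjusted p under 0.05 there were 2 beside 38.1% of genes, edgeR called 0 and DESeq2 called 2 (Krt16 and Krt42). Over all 14708 genes DESeq2 called 2848 higher and 1523 lower in tumors. Of the 9 genes, 6 had an MC38 mean under 5. Krt42 stood at 1.71 and 0 in MC38 and at 0.671 to 71.3 in the tumors with a median of 14.98, where WT replicate 3 of each day was highest. The groups overlapped, and the log2 difference, tumors minus MC38, was 2.87 (SE 1.05, adjusted p = 0.0513 in limma). Krt14 had a difference of 1.84 (SE 0.758, adjusted p = 0.0811) and Krt16 one of 1.62 (SE 0.787, adjusted p = 0.140). For Krt10 the difference was 0.42 (95% interval -0.13 to 0.97, adjusted p = 0.259).

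Among partner genes, 2 of 6 tested desmosome genes were higher in tumors than in MC38 beside 18.2% of all genes, Pkp1 (log2 difference 3.63, SE 0.643, adjusted p = 0.000306) and Jup, or plakoglobin (1.93, SE 0.477, adjusted p = 0.00536). Pkp1 had 0 reads in MC38, passed the filter through the tumors and stood at 3.34 to 50.3 in the 12 tumors. Of 6 hemidesmosome genes Plec was lower (-0.56), and of 6 regulators Gata3 was lower (-1.11), beside 9.43% of all genes. Of 7 tested genes of other intermediate filaments 3 were higher, beside 18.2% of all genes. These were Des, Synm and Nes, filament genes of muscle, vessel and stromal cells (3.92, 3.78 and 1.75).

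WT replicate 2 of day 23 stood apart from the other 11 tumors. It held 14 keratins above 5 normalized counts, 8 of them above 5 in no other tumor, and 20 of the 51 had their highest tumor value there, 12 of them with a value above 5. Some, such as Krt33b and Krt40, were highest there from 1 read. How many of all genes were highest, or above 5 only, in this tumor was not counted. Keratins with a read numbered 29 here and 25 in WT replicate 1 of day 23. Krt5 stood at 135.5 there and at most at 1.95 in the other 11, Krt1 at 113 and 0, Krt6a at 304 and 1.58, and Krt6b at 318 and 0. Krt15 stood at 15.3 and at most 2.69, Krt79 at 29.8 and 4.43, and Krt77 at 17.05 and 4.43. The values of Krt1, Krt5, Krt6a and Krt6b came from 133 to 373 reads, and those of Krt15, Krt77 and Krt79 from 18, 20 and 35.

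Set against the mean of both skin libraries, the percent differed between layers. No test was made, since there is 1 such library. The amount above the median of the other 11 tumors was 0.286%, 0.463% and 0.0760% of the skin mean for Krt5, Krt14 and Krt15, and 0.742% and 0.602% for Krt1 and Krt10. It was 2.55% for Krt6a, 6.49% for Krt6b, 3.31% for Krt16 and 0.284% for Krt17. For the inner root sheath the median over genes with a skin mean of at least 1000 was 0.0193% and for the hair cortex 0.0141%, from 0 to 5 reads per gene, and Krt75 and Krt35 had 0 reads. Among the 28 keratins with a skin mean of at least 1000, Krt6b, Krt16 and Krt6a thus had the highest percent. Keratins with a lower skin mean could reach more from few reads, as Krt40 did with 1 read (7.23%), and Krt42 with 37.4% of a skin mean of 27.3. Skin replicates differ in hair keratins as given above, which bears on the denominator for those genes.

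Epidermal markers other than keratins had their highest tumor sum here, though not every marker was highest. All 11 of them were above 5 in this tumor, against 2 to 6 in the other tumors, and their sum was 1019 normalized counts against 64.2 to 298. Krtdap stood at 241, Dmkn at 127, Perp at 117 and Flg at 103, and the median over the list was 0.273% of skin. Krtdap was at most 5.90 and Perp at most 4.76 in the other tumors. Sbsn and Trp63 were not highest here. Sbsn stood at 115.08 here and reached 142.61 in another tumor. Trp63 stood at 5.1148 (6 reads) here and reached 15.696 in another tumor. Sprr1a stood at 25.574 here and reached 25.352 in another tumor. Markers of muscle (84.4) and adipocytes (156), which skin also holds, were within the range of the other tumors (72.3 to 9464 and 119 to 876). The hair fiber markers summed to 89.5 against 9.42 to 51.6, and Krtap8-1 had 20 reads here and 0 in the other tumors. The part of epidermis in the keratin values of this tumor was not tested.

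**Figure D4:**
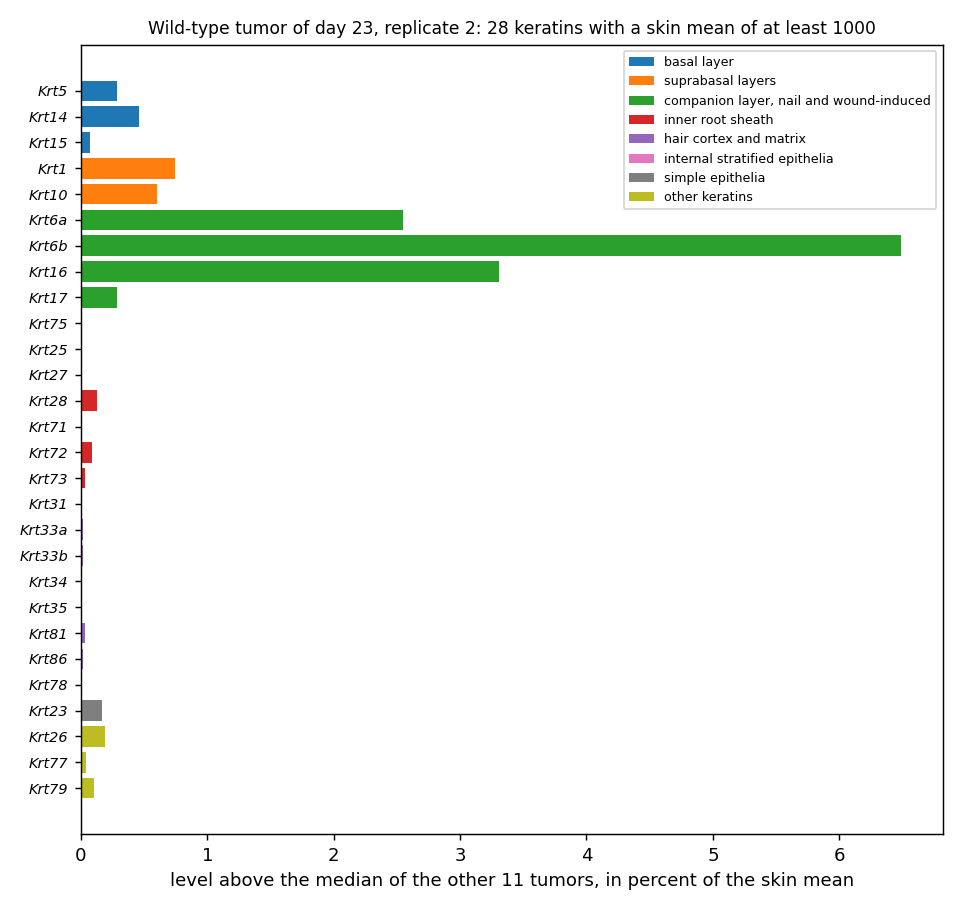
Level in WT tumor replicate 2 of day 23 above the median of the other 11 tumors, in percent of the mean of the 2 skin libraries (x), for the 28 keratins with a skin mean of at least 1000 (y, bars coloured by layer). Krt6b (6.49%), Krt16 (3.31%) and Krt6a (2.55%) are the longest bars, the basal and suprabasal keratins are under 1%, and the inner root sheath and hair cortex keratins are at 0.130% or less.

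Of the 6 simple keratins, Krt7, Krt8, Krt18, Krt19 and Krt20 had their highest tumor values in RAG1-/- tumors of day 13, and Krt23 had its highest in WT replicate 2 of day 23 (4.26, from 5 reads). Krt18 stood at 14.98, 1.11 and 4.76 in these 3 tumors and at most at 2.93 in the other 9. Krt8 stood at 13.9, 0 and 10.5 there and at most at 8.79 elsewhere, which was in WT replicate 3 of day 46. Krt19 stood at 5.35, 0 and 12.4 there and at most at 6.91 elsewhere. These values rest on at most 14 reads, and replicate 2 lay with the other groups. How many of all genes had their highest tumor value in RAG1-/- tumors of day 13 was not counted.

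Replicates 1 and 3 of that group also carried the highest muscle marker sums of all tumors (9080 and 9464 normalized counts, against 72.3 to 1487 in the other 10), and replicate 1 the highest adipocyte sum (876). Krt20, a keratin of intestinal lining, stood at 9.53 in replicate 3, where Muc2 stood at 20.01 and Car1, a colonic carbonic anhydrase, at 12.4. RAG1-/- replicate 2 of day 23 held 12.8 of Muc2 and 31.9 of Car1 with 2.13 of Krt20 and 0 of Krt8 and Krt18. Of the 9 colon markers, 6 were above 5 in RAG1-/- replicate 3 of day 13 and 1 to 4 in the other tumors. The part of muscle, fat or gut tissue in these values was not tested.

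WT and RAG1-/- tumors of day 23 were compared to ask whether keratins differ with adaptive immunity. Of 9 keratins tested, 0 were called by limma beside 0.278% of 14746 genes (0.231% higher and 0.0475% lower in WT), 3 had an unadjusted p under 0.05 beside 11.2%, and edgeR and DESeq2 called 0. Krt14 stood at 24.3, 329.9 and 132 in WT and at 14.4, 12.8 and 31.8 in RAG1-/- tumors, and the groups overlapped (log2 difference 2.44, SE 0.820, adjusted p = 0.266). Krt16 stood at 55.5 to 169.6 against 5.24 to 31.9 (2.39, SE 0.872, adjusted p = 0.305). Krt17 stood at 4.43 to 52.9 against 0 to 2.65 (2.87, SE 0.990, adjusted p = 0.279). How many of all genes separate in this way between the groups was not counted. Krt1, Krt5, Krt6a, Krt6b and Krt17 passed the filter on low values only through WT replicate 2, which fixed their direction in advance. Krt17 is 1 of the 3 with an unadjusted p under 0.05 in limma. Without WT replicate 2, 4 keratins were tested and 0 called, and Krt14 and Krt16 had differences of 1.60 and 1.87.

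Over both days, WT against RAG1-/- tumors gave 0 calls of 9 beside 0.712% of genes in limma (0.570% higher and 0.142% lower in WT), and 1 gene at an unadjusted p under 0.05, beside 11.4% (Krt17, log2 difference 1.81, SE 0.700, adjusted p = 0.324). Krt17 passed the filter on low values only through WT replicate 2 of day 23, which fixed its direction in advance. EdgeR and DESeq2 called 0. Krt10 differed by 0.08 (95% interval -0.36 to 0.52). The day 23 and both-day comparisons share the tumors of day 23. Krt10 lay between 219 and 1038 in the 6 WT tumors (mean 469.6) and between 344 and 465 in the 6 RAG1-/- tumors (mean 389 ± 47.9, SD), and the groups overlapped.

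With time, WT tumors of day 46 against day 23 gave 0 calls of 9 beside 0% of genes in limma, 4 genes at an unadjusted p under 0.05 beside 8.55%, 0 calls in edgeR and 1 in DESeq2 (Krt10). Krt17, 1 of the 4, passed the filter on low values only through WT replicate 2 of day 23, as did Krt1, Krt5, Krt6a and Krt6b. This fixed their direction in advance. Over all 14746 genes DESeq2 called 25 higher and 16 lower at day 46. Krt10 stood at 219, 326 and 312 at day 46 and at 353, 1038 and 569 at day 23, with a log2 difference of -1.07 (SE 0.293, adjusted p = 0.385 in limma). Krt16 was at 1.95 to 23.2 against 55.5 to 169.6 (-3.18, SE 0.872, adjusted p = 0.385). How many of all genes separate between the days as Krt10 and Krt16 do was not counted. Krt14 overlapped between the days (-2.90, SE 0.820, adjusted p = 0.385), and Krt17 at 0 to 4.70 against 4.43 to 52.9 overlapped too (-2.60, SE 0.990, adjusted p = 0.506). Without WT replicate 2 of day 23 the differences were -0.67 for Krt10, -2.06 for Krt14 and -2.66 for Krt16, with adjusted p from 0.553 to 0.584.

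RAG1-/- tumors of day 23 against day 13 gave 0 calls of 9 beside 0% of genes in limma, 0 genes at an unadjusted p under 0.05 beside 11.7%, and 0 calls in edgeR and DESeq2. Krt10 differed by 0.17 (95% interval -0.45 to 0.79) and Krt14 by -0.73 (95% interval -2.48 to 1.009), and both groups overlapped in Krt14. Krt1, Krt5 and Krt6b had 0 reads in all 6 of these tumors. The difference between the time courses of WT and RAG1-/- mice, tested as an interaction, gave 0 calls of 9 beside 0% of genes in limma, with 3 at an unadjusted p under 0.05 beside 8.67% and a lowest adjusted p of 0.457 (Krt10). Krt17, 1 of these 3, passed the filter on low values only through WT replicate 2 of day 23. Of the desmosome, hemidesmosome, regulator and other filament genes, 0 were called in any comparison between tumor groups.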

How the data were processed

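Per the labels, total RNA of 16 libraries was prepared with QuantSeq 3′ mRNA-Seq and sequenced on an Ion Proton. The authors trimmed the reads, aligned them to mm10 with STAR and then Bowtie2, counted them per gene with HTSeq and scaled the counts by DESeq2 size factors. The deposited values are this signal, a normalized count per gene. Whole reads were recovered for every value by dividing by the value of 1 read in a library. A second table of 6 antibody-treated tumors was not used here, because its column names match no sample label.

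Genes with a mean of at least 5 in the samples of a comparison were fitted with limma 3.58.1 (trend) on log2(normalized count + 1), and adjusted p-values under 0.05 (Benjamini-Hochberg over all genes tested) were called. Fold changes are on that scale and understate low genes. MC38 and skin were fitted with 4 libraries, tumors and skin with 5, tumors and MC38 with 14 and the tumor groups with 12. Alternatives were edgeR 4.0.16 and DESeq2 1.42.0 on recovered reads, other pseudocounts, filters and scalings, a replicate block and leaving out each library. The limma, edgeR and DESeq2 fits were tested on simulated data, with counts drawn around 1 mean per gene. This does not cover genes near 0 in a whole group or high in a single tumor, and no result here rests on it. Intervals and floors cover counting error only. Members and lists were chosen with earlier results of these data known. Every keratin is reported by layer, with values in the libraries for the defining genes, and up to 4 called genes with the largest difference per partner list. Krt85 and Krt90 were not analysed here. Sequences are from RefSeq (GRCm38.p6), where 35 of the 51 keratins had a promoter.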

Additional observations from a re-analysis of the deposited data

Results flagged for a closer look

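Among 9 keratins looked at in the 6 WT and the 6 RAG1-/- tumors (15 groups of values), 7 highest values lay further from the next than Dixon's 95% limit for 6 samples (0.625 of the range). The rate of about 1 in 20 groups behind this limit does not hold for genes kept by a filter or for counts near 0. In WT tumors 6 of the 7 came from replicate 2 of day 23, with 113.38 normalized counts of Krt1, 169.64 of Krt16, 52.853 of Krt17, 135.54 of Krt5, 304.33 of Krt6a and 317.97 of Krt6b. Krt1, Krt5, Krt6a, Krt6b and Krt17 passed the filter on low values only through this tumor. Their flags are therefore no support for an outlier. The 7th was Krt6a in RAG1-/- tumor replicate 2 of day 13, at 1.1119 normalized counts, which is 1 read where the other 5 tumors had 0.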

How the results depend on the processing

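The calls against skin kept their direction: 0 keratins were higher and 31 to 46 (MC38) or 31 to 44 (WT tumors of day 23) were lower under every alternative. For tumors against MC38 the number of higher keratins was 1 with a pseudocount of 0.1 (Krt42), 2 with DESeq2 and 0 to 1 without single libraries (5 of 14 times Krt42, without RAG1-/- replicate 2 of day 13, RAG1-/- replicate 1 of day 23 or any WT replicate of day 46, and once Krt14, without WT replicate 1 of day 23). For WT day 46 against day 23, DESeq2 gave 1 lower keratin (Krt10). Over all genes DESeq2 gave 25 higher and 16 lower there, and 2848 higher and 1523 lower for tumors against MC38. Of 858 values of single genes under alternatives, 825 kept their side and direction, 13 lost and 10 gained a call and 10 turned, none of them called: Krt42 in WT tumors of day 23 against skin to -0.29 with the replicate block, -0.29 without tumor replicate 3 and -0.10 without skin replicate 1, Krt10 in WT against RAG1-/- tumors over both days to -0.12 without WT replicate 2 of day 23, and in RAG1-/- day 23 against day 13 Krt16 to -0.079 (edgeR), -0.056 (DESeq2), -0.39 (without day 13 replicate 2) and -0.29 (without day 23 replicate 2), and Krt42 to -0.60 and -0.16 without the same 2 libraries. The highest values of these 4 without single libraries were 0.65, 0.27, 1.12 and 1.08. The cause was not tested.

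Of 18 pairs of tumors with the same replicate number, 4 had deviations that correlated over 0.1 (range -0.24 to 0.24), and 3 of these were all the pairs of RAG1-/- day 23 with WT day 46 (0.11, 0.22 and 0.14), groups not compared with each other alone. The numbers were not taken as pairs. With the replicate block 46 keratins were lower in MC38 than in skin, 39 in WT tumors of day 23 than in skin, and 0 were called in the other comparisons.

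Most keratins outside skin rest on under 10 reads, where presence cannot be told from a few carried-over reads, and with 2 skin and 2 MC38 samples p-values leave little room for the hair keratins, which differ between both skin samples. Leaving out a skin library leaves 1 sample there, which is assumed to vary like the other group. Whole-library scaling is set by genes that differ widely between skin and cells, and the median of all genes moved from -0.40 to 0.0078 (MC38 against skin) with scaling to the total, which changed 0 calls of keratins.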
